A study of Mus musculus with 6 samples.

Results

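The MEF2 transcription factors *Mef2a*, *Mef2c* and *Mef2d* and the class IIa histone deacetylases *Hdac4*, *Hdac5*, *Hdac7* and *Hdac9*, which repress them, were followed in the mouse hippocampus. These 7 genes were taken by their names from a table of 55421 genes, and all 7 had enough counts to be among the 17069 genes tested. RNA had been sequenced from the hippocampus of 6 wild-type male C57BL/6N mice, aged 8 to 10 weeks, as 1 library per mouse. In the SP group, 3 mice received the neuropeptide substance P (SP) under the skin, at 10 µM in 100 µL, on each of 14 days. In the vehicle group, 3 mice received saline in the same volume and over the same days. The tissue is whole hippocampus, so a lower count can come from fewer cells of a type or from less RNA per cell, and these cannot be told apart. Directions are given as the columns of the deposited table are labelled. For some genes, *Mef2c* and the myelin genes *Mbp* and *Mag* among them, the study's text gives the opposite direction. No measured gene tests which mice received SP, so which set of columns is SP could not be settled here, and every sign below holds only if the column labels are right.

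MEF2 proteins bind short A/T-rich elements in DNA and switch genes on in response to calcium signals. In neurons they are known for limiting the number of excitatory synapses, and in the hippocampus and cortex they take part in learning and memory. Class IIa histone deacetylases have little enzymatic activity of their own, but bind MEF2 proteins and bring a corepressor with HDAC3 to its target genes. When calcium-dependent kinases phosphorylate them, 14-3-3 proteins carry them out of the nucleus and MEF2 is released.

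*Mef2c* was the only one of the 7 genes whose libraries labelled SP lay well below those labelled vehicle, at 108 ± 1.32 CPM (counts scaled to library size, SD, n = 3) against 147 ± 18.2 (SD, n = 3). The other 6 differed by less than 10% in mean level, and for 5 of them the groups overlapped. None of the 7 passed the call used here (FDR < 0.1 and |log2FC| > 0.3, edgeR's quasi-likelihood test with the replicate number as a block). Of all genes tested, 0.0293% passed it, 0.0176% as higher and 0.0117% as lower in SP. Before adjustment, 1 of the 7 had a p under 0.05, against 10.1% of all genes. The study itself used DESeq2, with these same thresholds and an adjustment for replicates. Under DESeq2, 1 of the 7 was called here, *Mef2c*. This held with the same block (against 0.315% of the genes with an adjusted p, 0.253% as lower) and without it (against 1.02%). The median log2FC of the 7 genes was 0.0084 and that of all genes 0.0015.

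The libraries held 22349964 to 27605935 counts, and a count of 0 allowed a level of up to 0.109 to 0.134 CPM. Choroid plexus genes summed to 169 CPM in SP 1 and to between 2762 and 4674 CPM in the others, and oligodendrocyte genes to 6862 CPM in SP 2 against 4167 to 5311 CPM elsewhere. SP 2 also had the lowest sum of interneuron genes. Dentate granule cell markers were present in every library, for example *Prox1* at 75.5 to 129 CPM.

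The 7 genes lie on different chromosomes of the mouse genome (GRCm38, GENCODE M21), and the sequences around their starts differ. *Mef2c* lies at chr13:83504034-83667080 on the plus strand, with 31 annotated transcripts. *Mef2a* lies at chr7:67231163-67372858 on the minus strand and *Mef2d* at chr3:88142372-88172086 on the plus strand. All 4 deacetylase genes are on minus strands, *Hdac4* at chr1:91928779-92195699, *Hdac5* at chr11:102194432-102230166, *Hdac7* at chr15:97792664-97844502 and *Hdac9*, which spans 869516 bases, at chr12:34047580-34917095. The RefSeq promoter table (GRCm38.p6, 250 bases before to 50 bases after each start) held 13 windows for the 7 genes. These were searched on both strands for the degenerate MEF2 consensus. It was found in 2 of the 13 windows, those of *Mef2a* and *Hdac5*, and in 1047 of all 32851 windows (3.19%). The matches lie at the start of *Mef2a* itself and 20 to 11 bases before the start of *Hdac5*. Both are printed here because they carry these matches, in capitals, and are read 5′ to 3′ on the strand of the gene. The windows of *Mef2c* are at 3 separate starts and hold no match. The 100 bases before each of those starts are printed for comparison, all in lower case.
Mef2a, chr7:67372851-67372958, minus strand: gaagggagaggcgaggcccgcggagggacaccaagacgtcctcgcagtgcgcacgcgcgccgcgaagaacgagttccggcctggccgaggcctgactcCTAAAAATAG
Hdac5, chr11:102230173-102230272, minus strand: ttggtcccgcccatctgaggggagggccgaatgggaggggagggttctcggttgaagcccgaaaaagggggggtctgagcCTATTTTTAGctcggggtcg
Mef2c, chr13:83503934-83504033, plus strand: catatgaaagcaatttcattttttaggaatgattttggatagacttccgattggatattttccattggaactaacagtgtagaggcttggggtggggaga
Mef2c, chr13:83523556-83523655, plus strand: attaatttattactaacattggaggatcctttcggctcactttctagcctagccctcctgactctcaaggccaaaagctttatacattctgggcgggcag
Mef2c, chr13:83573507-83573606, plus strand: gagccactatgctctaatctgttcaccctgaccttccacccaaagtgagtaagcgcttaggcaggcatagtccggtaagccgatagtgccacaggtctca

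These windows also differ in base composition. The *Mef2c* windows have 35.7%, 47.0% and 48.3% G and C, below the median of 52.7% over all windows, whereas the *Mef2a* and *Hdac5* windows have 62.3% and 60.7%. Among 13 windows of 6 neuronal target genes of MEF2, 0 held the consensus. A match is a description of the letters and not evidence of binding, and a factor may bind outside these windows.

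*Mef2c* (ENSMUSG00000005583), the MEF2 gene most studied in cortical and hippocampal excitatory neurons, measured 167, 131 and 144 CPM in vehicle 1, 2 and 3. It measured 109, 107 and 108 CPM in SP 1, 2 and 3. Every library labelled SP was below every library labelled vehicle, and the SP libraries lay close together. The coefficient of variation was 1.22% in SP and 12.4% in vehicle, each over 3 mice, and this difference in spread was not tested. The ratio of the SP mean to the vehicle mean was 0.734, with a log2FC of −0.44 (SE 0.0683, 95% interval −0.60 to −0.28, FDR 0.245 by edgeR). Within replicate pairs the log2 difference was −0.61, −0.29 and −0.42, all below 0, as any pairing of groups without overlap must give. *Mef2c* ranked 20 by p among the 17069 genes. A two-sided exact permutation test on its level gave p = 0.1, the smallest that 3 against 3 libraries can give. *Mef2c* was among the genes that the study had singled out on these same samples, so it is not independent evidence, and the direction given there is the opposite of that by the column labels.

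**Figure D1:**
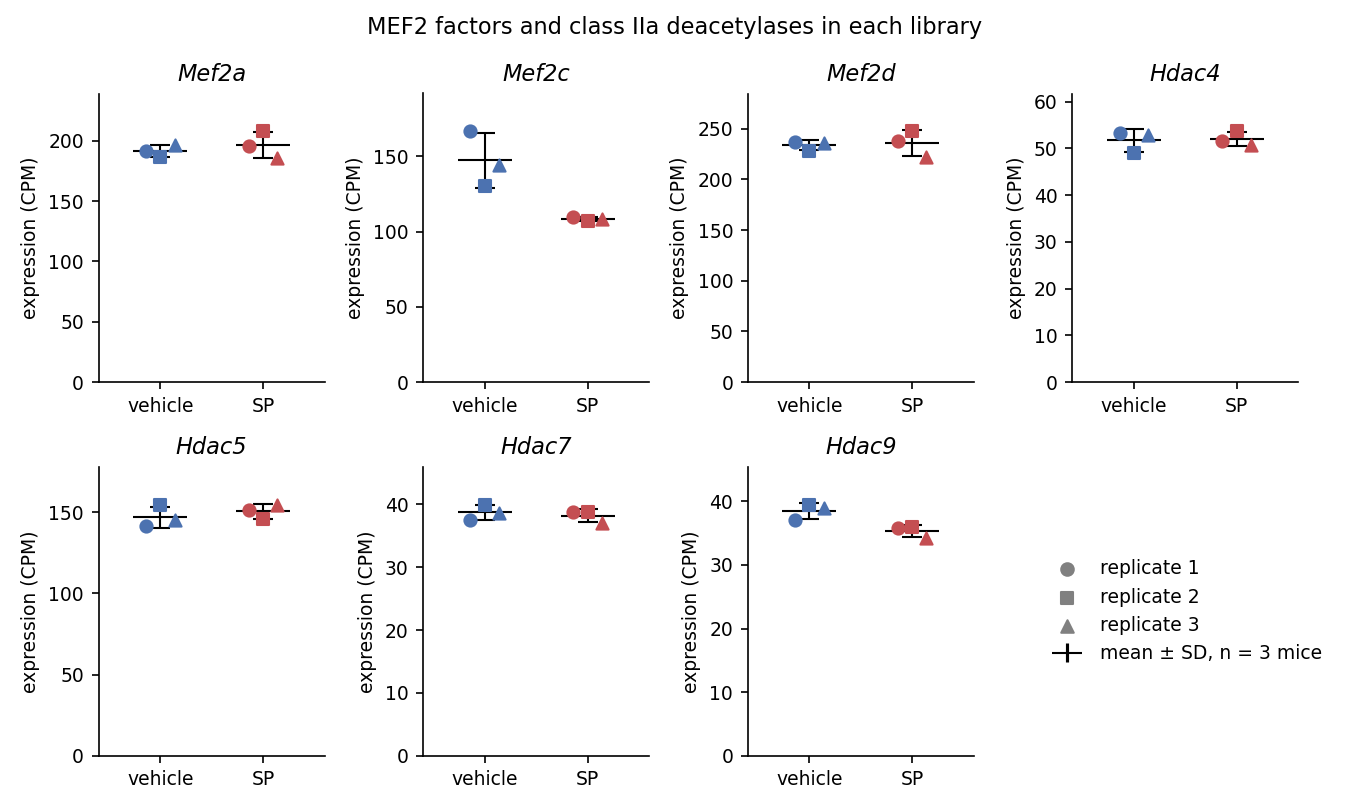
Level of each of the 7 genes in CPM (y axis, from 0) in the 3 vehicle and 3 SP libraries (points, with shapes for replicate numbers), with group means and SD. The SP points of *Mef2c* lie between 107 and 109 CPM, below the vehicle points at 131 to 167 CPM, and the groups overlap for all others but *Hdac9*.

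Whether *Mef2c* was called depended on the fit, whereas its estimate moved little. DESeq2 gave a log2FC of −0.44 with the block (FDR 0.00162) and −0.45 without it (FDR 0.000147). With edgeR and no filter on low counts it was −0.45 (FDR 0.000706, 28039 genes tested). The FDR was 0.268 with edgeR and no block and 0.335 with limma-voom. Leaving out both mice of replicate 2 gave −0.51 (FDR 0.0265), leaving out replicate 1 gave −0.35 (FDR 0.712), and leaving out replicate 3 gave −0.45 (FDR 0.174). Over these and the other alternatives the estimate ranged from −0.51 to −0.35, and 4 of 11 called it.

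**Figure D2:**
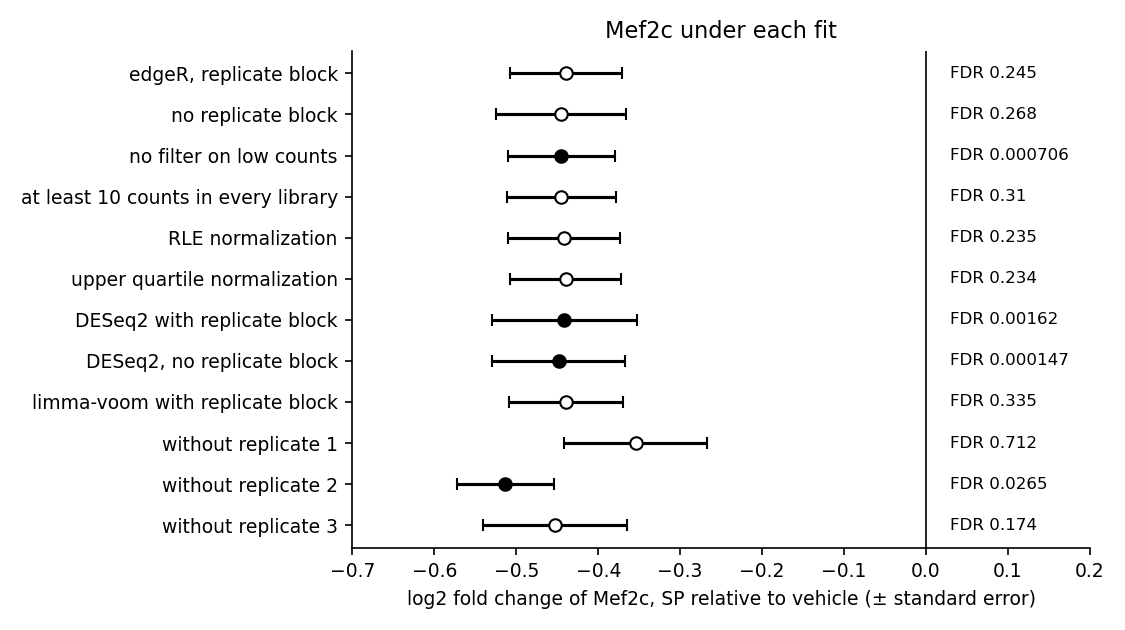
Log2FC of *Mef2c*, SP relative to vehicle (x axis), with its standard error (bars) under each fit (y axis). Filled points passed the call and open points did not. All estimates lie between −0.51 and −0.35, and the FDR beside each ranges from 0.000147 to 0.712.

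*Mef2a* (ENSMUSG00000030557), widely expressed in brain, measured 192, 187 and 196 CPM in vehicle and 196, 208 and 186 CPM in SP. SP 2 was the highest and SP 3 the lowest of the 6, and the groups overlapped. The log2FC was 0.036 (SE 0.0591, 95% interval −0.10 to 0.17, FDR 0.873 by edgeR). *Mef2d* (ENSMUSG00000001419), the MEF2 gene with the most counts here, measured 237, 228 and 236 CPM in vehicle and 238, 247 and 222 CPM in SP. Again SP 2 was highest and SP 3 lowest. Its log2FC was 0.012 (SE 0.0565, 95% interval −0.12 to 0.14, FDR 0.962 by edgeR). For both genes a change to below 0.920 or above 1.13 times the vehicle level lay outside the 95% interval. *Mef2b*, the remaining family member, had 1 to 5 counts per library and was not tested.

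The ratio of *Mef2c* to the other MEF2 genes within a library needs no scaling between libraries. *Mef2c* over *Mef2a* was 0.869, 0.699 and 0.736 in vehicle and 0.558, 0.513 and 0.581 in SP, in CPM. *Mef2c* over *Mef2d* was 0.703, 0.572 and 0.612 in vehicle and 0.459, 0.432 and 0.486 in SP. Both ratios were lower in every SP library. *Mef2d* over *Mef2a* stayed between 1.19 and 1.24 in all 6.

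The class IIa deacetylases were at similar levels in both groups. *Hdac4* (ENSMUSG00000026313), which shuttles out of the nucleus upon synaptic activity, measured 53.4, 48.9 and 52.9 CPM in vehicle and 51.6, 53.7 and 50.8 CPM in SP, and the groups overlapped. Its log2FC was 0.0084 (SE 0.0644, 95% interval −0.14 to 0.16, FDR 0.976 by edgeR). *Hdac5* (ENSMUSG00000008855), the class IIa gene with the most counts here, measured 142, 154 and 145 CPM in vehicle and 152, 146 and 155 CPM in SP. The highest vehicle library lay above 2 of the 3 SP libraries, and the log2FC was 0.036 (SE 0.0570, 95% interval −0.097 to 0.17, FDR 0.865 by edgeR). *Hdac7* (ENSMUSG00000022475), best known in blood vessels and lymphocytes, measured 37.6, 40.0 and 38.6 CPM in vehicle and 38.9, 38.8 and 37.1 CPM in SP. Its groups overlapped too, with a log2FC of −0.018 (SE 0.0607, 95% interval −0.16 to 0.12, FDR 0.943 by edgeR).

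*Hdac9* (ENSMUSG00000004698), which also gives rise to a short repressor that lacks the deacetylase domain, was the second gene whose groups did not overlap. It measured 37.0, 39.5 and 39.0 CPM in vehicle and 35.8, 35.9 and 34.2 CPM in SP. Every SP library was below every vehicle library, by little, and the ratio of the means was 0.917. The log2FC was −0.12 (SE 0.0623, 95% interval −0.27 to 0.021, FDR 0.550 by edgeR), and the replicate pairs gave −0.049, −0.14 and −0.19. The exact permutation p was 0.1. In all, 2 of the 7 genes were lower without overlap, against 9.03% of all genes tested, and 0 were higher without overlap, against 9.19% (18.2% in either direction). Counts are per gene, so the *Hdac9* isoforms and those of the other 6 genes were not told apart.

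Relative levels of the genes were compared per kb of merged exons. *Mef2d* had the highest level in vehicle, at 39.1 ± 0.801 CPM per kb (SD, n = 3). It was followed by *Hdac5* at 16.7 ± 0.739, *Mef2a* at 13.1 ± 0.325, *Mef2c* at 9.37 ± 1.16, *Hdac7* at 5.73 ± 0.176, *Hdac4* at 3.27 ± 0.155 and *Hdac9* at 2.62 ± 0.0894. In SP, the level of *Mef2c* was 6.88 ± 0.0837 CPM per kb and the order was the same. No neighbours in this order overlapped in any of the 6 libraries. With the length of the longest transcript instead, *Mef2a* came before *Hdac5*, *Hdac5* and *Mef2c* overlapped in their ranges, and the other ranks stayed. Which isoforms were made is not shown by gene counts.

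**Figure D3:**
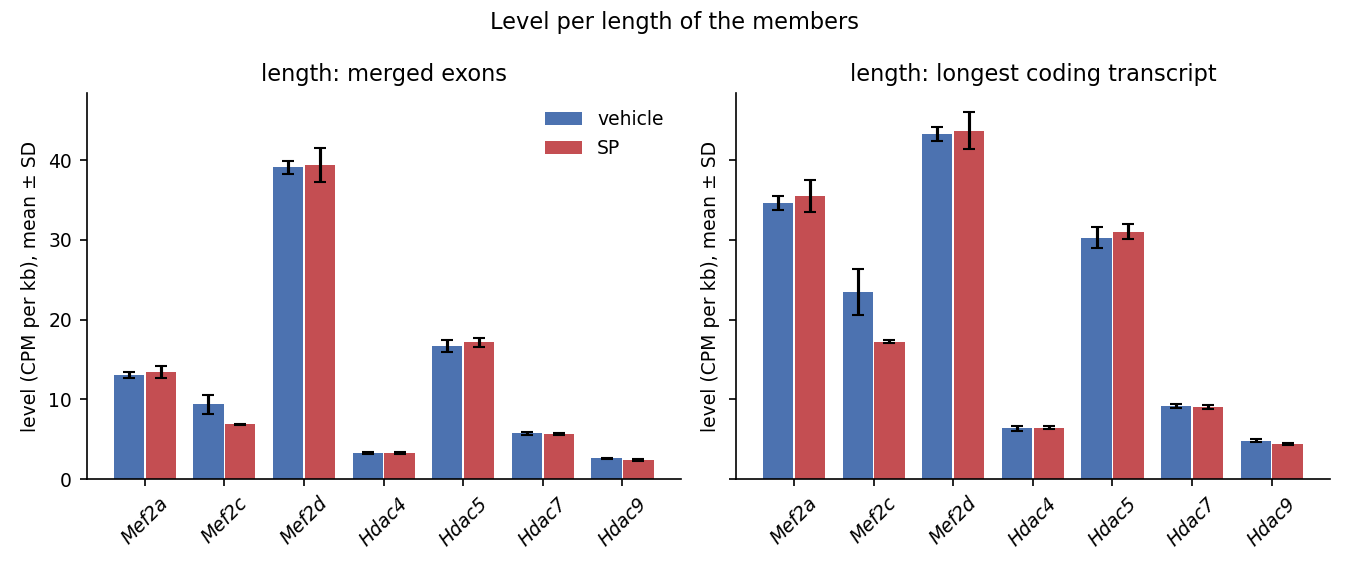
Mean level of each gene in CPM per kb (y axis) in the vehicle and SP groups (bars, SD over 3 mice), by merged exons (left) and by the longest coding transcript (right). *Mef2d* lies highest, at 39.1 in vehicle by merged exons, and *Hdac9* lowest, at 2.62. *Mef2a* and *Hdac5* change places between the panels.

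Of the summed MEF2 level per kb, *Mef2c* made up 16.8%, 14.0% and 14.8% in the vehicle libraries. It made up 11.6%, 10.9% and 12.1% in the SP libraries, each below every vehicle library. *Mef2d* made up 62.6% to 64.5% in vehicle and 65.5% to 66.4% in SP. The summed level itself was 63.3, 59.2 and 62.0 CPM per kb in vehicle and 60.1, 62.3 and 56.7 in SP, and overlapped. The class IIa sum was 27.6 to 29.3 CPM per kb in vehicle and 28.2 to 28.7 in SP, and the ratio of the MEF2 sum to it was 2.02 to 2.29 in vehicle and 1.98 to 2.21 in SP. The share of *Mef2c* thus separated the groups, and the total did not.

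Among the other genes of the pathway, 0 of 52 tested passed the call. Before adjustment, 4 were higher and 3 lower at a p under 0.05, against 4.48% and 5.59% of all genes. Without overlap of the groups, 9 were higher and 7 lower, against 9.19% and 9.03% of all genes. The median log2FC was 0.042. These are the kinases and 14-3-3 proteins that export class IIa deacetylases, their corepressor, the other deacetylases, the regulators of MEF2 and its neuronal target genes.

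Of 21 kinase and 14-3-3 genes, 13 had a higher and 8 a lower estimate, with a median log2FC of 0.038. *Camk2d*, a subunit of calcium/calmodulin-dependent kinase II, measured 79.2, 75.7 and 73.5 CPM in vehicle and 41.8, 28.2 and 58.9 CPM in SP. All SP libraries were lower and they varied widely, SP 2 being the lowest. The log2FC was −0.88 (SE 0.176, FDR 0.308 by edgeR). It was called with no filter on low counts (FDR 0.00024) and without replicate 3 (log2FC −1.17, FDR 0.0352), and not with DESeq2 (FDR 0.369). *Camk2b*, another subunit of the kinase, measured 1194, 1193 and 1198 CPM in vehicle and 1336, 1614 and 1233 CPM in SP, with a log2FC of 0.21 (SE 0.0863, FDR 0.473). *Camk1d* and *Ywhah*, which encodes a 14-3-3 protein, had a log2FC of 0.17 (FDR 0.505) and 0.12 (FDR 0.556).

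In the corepressor complex, 1 gene was lower and 1 higher at a p under 0.05. The lower gene, *Tbl1x*, a subunit of the NCoR complex, measured 59.6, 60.5 and 62.6 CPM in vehicle and 48.4, 50.4 and 52.5 CPM in SP, without overlap. Its log2FC was −0.27 (SE 0.0552, FDR 0.308 by edgeR). The FDR was 0.0446 with edgeR and no filter on low counts, 0.0277 with DESeq2 and no block, and 0.418 with DESeq2 and the block. In these fits the log2FC was −0.28, so the minimum of 0.3 was not met. Of *Gps2* and *Ncor1*, the former had a log2FC of −0.044 and the latter of −0.010. *Hdac3*, the deacetylase of this complex, measured 93.4 to 100 CPM in vehicle and 89.7 to 94.3 CPM in SP, with overlap (log2FC −0.060, FDR 0.751 by edgeR). None of the 7 other deacetylase genes had a p under 0.05, and their log2FC ranged from −0.061 to 0.10.

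The 9 regulators of MEF2 on the list had estimates above 0, with a median log2FC of 0.075, and 1 had a p under 0.05. They are activators and coactivators but for *Cabin1*, which represses calcineurin and MEF2 and had a log2FC of 0.045. *Mapk7*, the kinase ERK5 that phosphorylates MEF2C, measured 27.8, 24.7 and 25.1 CPM in vehicle and 33.8, 33.2 and 27.4 CPM in SP. It was higher in 3 of 3 pairs, with SP 3 below vehicle 1 (log2FC 0.28, SE 0.0773, FDR 0.380 by edgeR). The calcineurin subunits *Ppp3r1* and *Ppp3ca* had a log2FC of 0.12 (FDR 0.566) and 0.16 (FDR 0.573), and *Mapk14*, which encodes p38α, of 0.10 (FDR 0.567).

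Neuronal target genes of MEF2 showed no common direction, with 6 estimates above and 4 below 0 among 10 and a median log2FC of 0.026. *Homer1*, a scaffold of glutamate receptors, measured 100, 100 and 104 CPM in vehicle and 108, 111 and 112 CPM in SP (log2FC 0.12, SE 0.0497, FDR 0.480 by edgeR). *Pcdh10*, a protocadherin needed for MEF2-dependent synapse removal, measured 110, 112 and 107 CPM in vehicle and 99.5, 85.8 and 103 CPM in SP (log2FC −0.20, SE 0.0717, FDR 0.440 by edgeR). Neither pair of groups overlapped, and the estimates had opposite signs. Among the 10 targets, 1 was higher and 2 lower without overlap, against 9.19% and 9.03% of all genes tested. *Bdnf*, a neurotrophin, had a log2FC of 0.13 (FDR 0.556) and *Ube3a*, a ubiquitin ligase, of −0.091 (FDR 0.581).

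**Figure D4:**
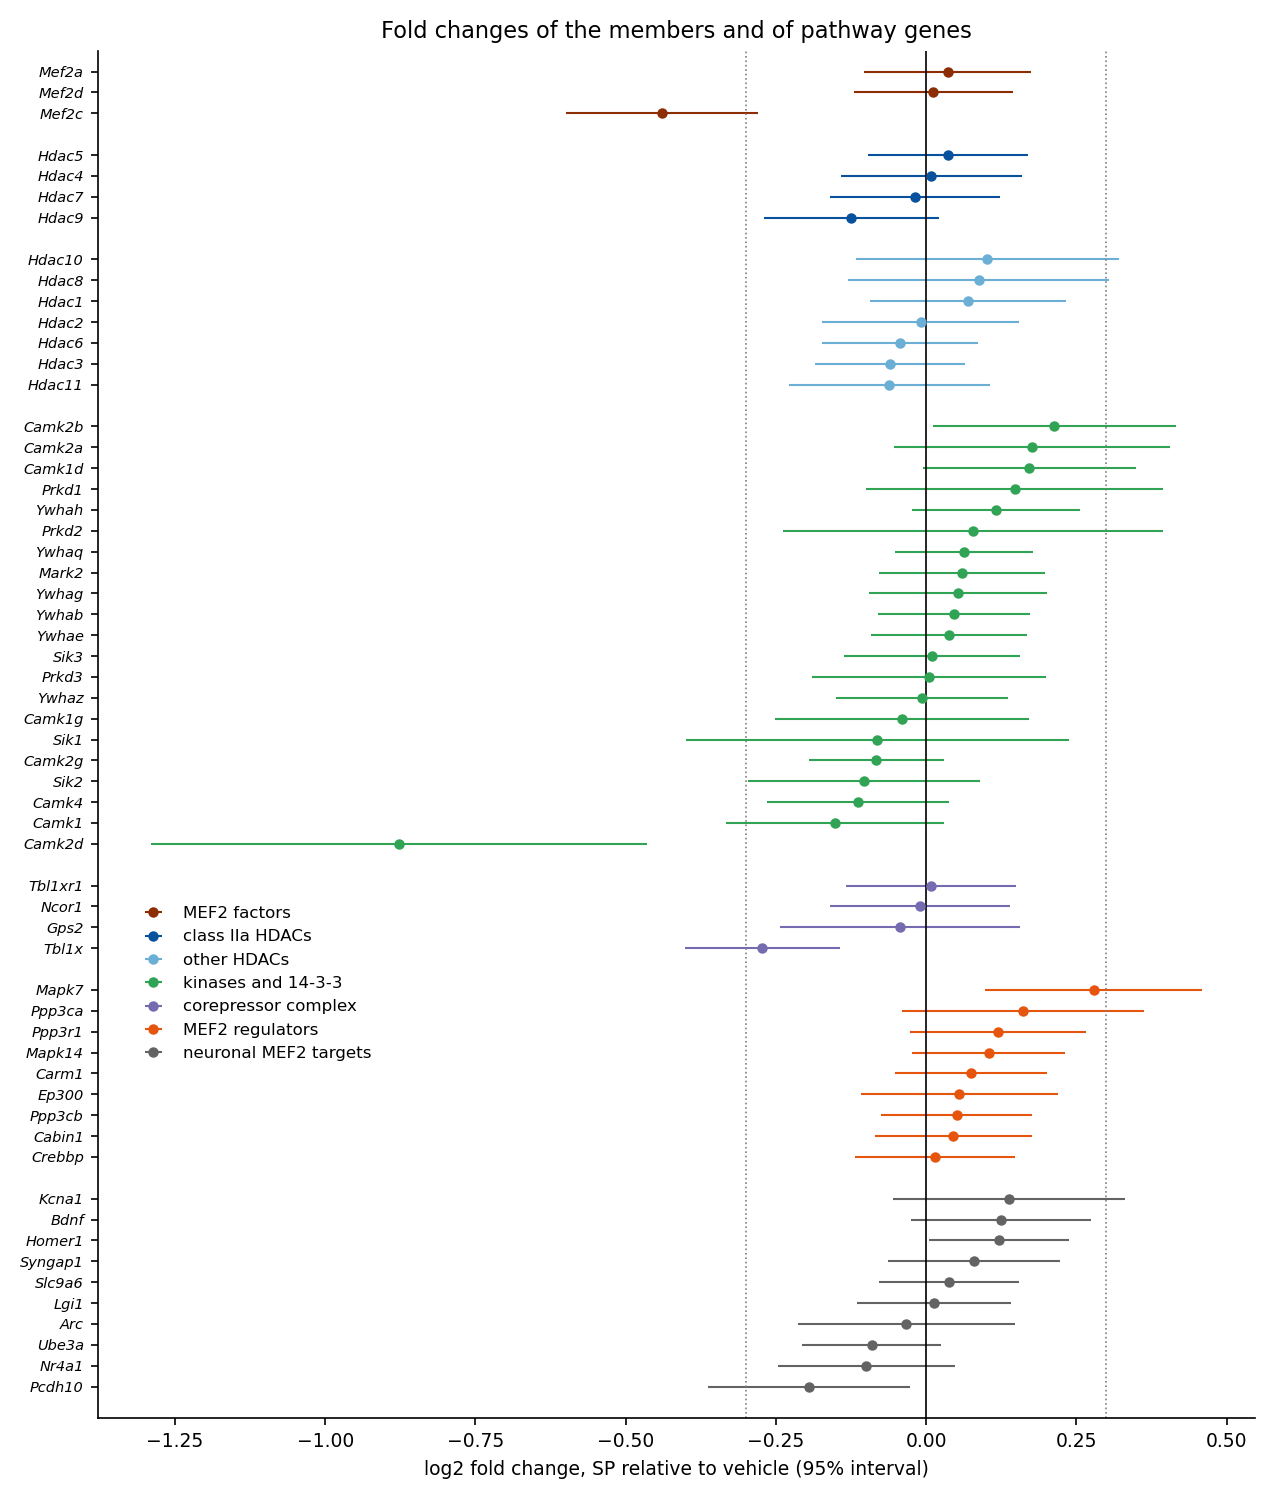
Log2FC, SP relative to vehicle (x axis), with 95% interval from edgeR (bars) for each of the 7 genes and other pathway genes tested (y axis), colored by list, with dotted lines at the minimum |log2FC| of 0.3. Among the 7 genes the interval of *Mef2c*, −0.60 to −0.28, is the only one that leaves out 0, and *Camk2d* has the lowest estimate, −0.88.

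Some markers of cell types were also lower or higher along with *Mef2c*, and their part in the result was not tested. Markers of neocortical neurons summed to 212, 198 and 204 CPM in vehicle and 179, 162 and 192 CPM in SP, without overlap. All 6 of them had an estimate below 0, with log2FC from −0.64 to −0.013 and a median of −0.18. Of the 17069 genes tested, 8455 had an estimate below 0. A p under 0.05 was found for 3 of the 6, against 5.59% of all genes as lower. *Cux2*, an upper-layer factor, had the lowest p (log2FC −0.64, SE 0.122, FDR 0.308 by edgeR), followed by *Tbr1*, a deep-layer factor (log2FC −0.25, SE 0.0587, FDR 0.335). SP 2 had the lowest sum and also, by little, the lowest *Mef2c* level (107 CPM, against 109 and 108 CPM in SP 1 and 3). The order did not match otherwise within SP, where the sum was highest in SP 3 and *Mef2c* in SP 1. In vehicle, both the sum and *Mef2c* were highest in vehicle 1 and lowest in vehicle 2. Oligodendrocyte markers summed to 4167, 4171 and 4684 CPM in vehicle and 5311, 6862 and 4786 CPM in SP. All 7 had an estimate above 0 by the column labels, and 6 a p under 0.05, against 4.48% of all genes as higher. The study's text gives *Mbp* and *Mag*, which are on this list, the opposite direction. Choroid plexus markers summed to 169, 2762 and 3910 CPM in SP 1, 2 and 3, and their relation to *Mef2c* was not tested.

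For the remaining cell types the groups overlapped, except for CA3 pyramidal cells. The 5 pan-neuronal markers summed to 4519 to 4582 CPM in vehicle and 4475 to 4600 CPM in SP. The dentate granule cell sum was 465 to 492 CPM in vehicle and 438 to 572 CPM in SP, and the CA1 sum 511 to 574 CPM and 505 to 559 CPM. The CA3 sum was 86.2 to 93.1 CPM in vehicle and 94.1 to 115 CPM in SP, although the mean log2 deviations of its markers overlapped. The 4 CA3 markers did not share a direction, with 3 estimates above and 1 below 0 (log2FC from −0.45 to 0.88). For microglia the sum was 298 to 315 CPM in vehicle and 290 to 310 CPM in SP. For endothelial cells it was 200 to 212 CPM and 194 to 202 CPM, and for astrocytes 1081 to 1119 CPM and 1016 to 1142 CPM. Interneuron markers summed to 652 to 730 CPM in vehicle and 522 to 703 CPM in SP.

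**Figure D5:**
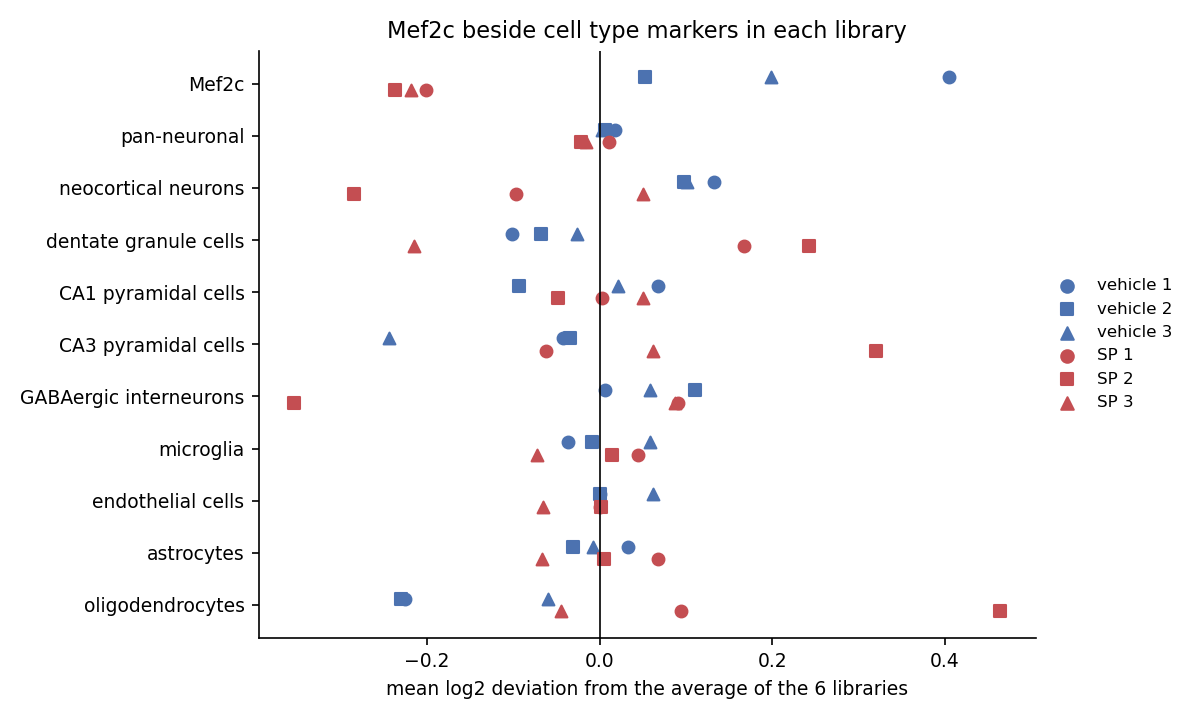
Mean log2 deviation of the markers of each cell type from the average of the 6 libraries (x axis), beside that of *Mef2c* (top), with 1 point per library and choroid plexus left out. Neocortical neuron markers lie lower in each SP library (−0.28 to 0.050) than in any vehicle library (0.098 to 0.13), oligodendrocyte markers lie higher, and pan-neuronal markers lie between −0.022 and 0.018.

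The genes most like *Mef2c* across the 6 libraries were *Hsdl2*, *Arhgap32*, *Top2b*, *Nyap2* and *Hsp90b1*. Their log2 CPM had a Pearson's r with *Mef2c* of 0.999, 0.992, 0.987, 0.986 and 0.982, as a description over 6 libraries that also differ by group. Of 11988 other genes with at least 5 CPM, 29 had an r over 0.95. *Arhgap32* measured 200, 173 and 181 CPM in vehicle and 150, 149 and 155 CPM in SP. *Nyap2*, a phosphoprotein of neurons, measured 28.7, 24.4 and 25.9 CPM in vehicle and 20.9 to 21.9 CPM in SP. Both were highest in vehicle 1 and lower in every SP library, like *Mef2c*, with a log2FC of −0.28 (FDR 0.308) and −0.31 (FDR 0.351) by edgeR. For *Hsdl2*, *Hsp90b1* and *Top2b* the log2FC was smaller in size, at −0.13 (FDR 0.550), −0.16 (FDR 0.415) and −0.087 (FDR 0.597). A high r thus did not mean a change of similar size.

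Some reads could be shared with neighbouring genes. On the opposite strand, exons of *Lysmd4* cover 302 bases of *Mef2a* exons, those of 1700113A16Rik 531 bases of *Mef2d*, those of Gm26720 3536 bases of *Hdac4* (22.4% of its exons) and those of *Slc48a1* 29 bases of *Hdac7*. The library kit marks the strand, but the sources used here do not give the strand setting of the counting, so reads in these stretches are uncertain. No annotated gene overlaps *Mef2c* exons.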

How the data were processed

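Hippocampal RNA was extracted with Trizol and sequenced after TruSeq stranded mRNA library preparation. The deposited values are estimated counts per gene, also called expected counts, which the authors obtained with Trim Galore, STAR and Salmon in a Nextflow RNA-seq pipeline on GRCm38. Tool versions and the annotation release are not given in the sources used here. Counts were rounded to whole numbers. Columns were matched to mice by the labels, which call the replicate number a batch.

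Genes were kept by filterByExpr (minimum count 10, total 15) and tested in R 4.3.3 with edgeR 4.0.16 (TMM factors 0.993 to 1.01, glmQLFit and glmQLFTest) and the replicate number as a block, because the paper adjusts for replicates. Across genes, the deviations of same-numbered libraries from their group means had a Pearson's r of 0.0135, −0.0661 and 0.0698. These lay within the range for libraries with different numbers, −0.103 to 0.0887. FDR is the Benjamini-Hochberg adjusted p over 17069 genes, and genes were called at FDR < 0.1 and |log2FC| > 0.3. Fits were checked on simulated counts in which 200 genes had a known change, each larger than that of *Mef2c*. Smaller changes were therefore not checked. No replicate effect was simulated either, so the block was not checked on counts that hold one. CPM are relative to normalized library sizes. DESeq2 1.42.0 and limma 3.58.1 (voom) served as alternatives, although DESeq2 is the tool that the paper used. Lengths and positions came from GENCODE M21, and promoters from RefSeq.

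The 7 genes, the pathway lists (53 genes) and the marker lists (64 genes) were chosen with earlier results of these data known, so their counts are descriptions. Named genes were the 7 members, up to 4 per pathway list and 2 per marker list with the lowest unadjusted p, and the 5 genes most correlated with *Mef2c*. Genes that overlap the members were named for their position, *Cabin1*, *Mbp* and *Mag* were chosen after their values were seen, and 1 gene of the pathway lists is counted but not reported here. The mice were 3 per group, and intervals cover the spread between these mice only.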

Additional observations from a re-analysis of the deposited data

How the results depend on the processing

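The number of genes called was 5 in all. It was 2 without the replicate block, with 0 of the 7 genes called with or without the pairing. It was 2 with limma-voom, 0 with at least 10 counts in every library, 0 at an FDR under 0.05, 384 without a filter, 36 with DESeq2 and the block, 133 with DESeq2 and no block, and 9 to 36 when 1 replicate was left out. Of the 7 genes, 1 (*Mef2c*) was called without a filter (log2FC −0.45), with DESeq2 (−0.44 with the block, −0.45 without) and without replicate 2 (−0.51), so that the count was 0 to 1 over the replicates left out. Of the pathway genes, 1 (*Camk2d*) was called without a filter and 1 without replicate 3, and 0 without either other replicate. Estimates kept their sign in 74 of 77 refits of the 7 genes. The exceptions came without replicate 2, where *Mef2a* was at −0.024, *Mef2d* at −0.040 and *Hdac4* at −0.055, and the median of the 7 genes at −0.040. Over the replicates left out, the highest values were 0.089 for *Mef2a*, −0.35 for *Mef2c*, 0.058 for *Mef2d*, 0.039 for *Hdac4* and 0.0055 for the median. The cause was not tested. On the longest transcript, vehicle levels were 34.6 (*Mef2a*), 23.5 (*Mef2c*), 43.3 (*Mef2d*), 6.39 (*Hdac4*), 27.2 (*Hdac5*), 7.48 (*Hdac7*) and 4.85 (*Hdac9*) CPM per kb. On the longest coding transcript, *Hdac5* was at 30.3 and *Hdac7* at 9.16, and *Mef2c* made up 23.1% of the MEF2 level in vehicle and 17.9% in SP. With 3 mice per group, the median SE of the 7 genes was 0.0607 on the log2 scale (0.0906 over all genes).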
